A study of Mus musculus with 5 samples.

Results

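The endocannabinoid receptor gene Cnr1 and the genes of 7 enzymes that make or break down its ligands (Dagla, Daglb, Napepld, Mgll, Abhd6, Abhd12 and Faah) were examined in the ribosome-bound RNA of Drd2 neurons of the central amygdala (CeA). The genes were chosen by name, and all 8 were found among the 15093 genes of the table and passed the filter on low values, which left 13560 genes for testing. None of the 8 passed the test between fear conditioned and control mice. The hydrolases Abhd6 and Abhd12 had higher values in every fear conditioned library than in either control library, while the other 6 genes overlapped between the groups. Such a lack of overlap was seen for 36.4% of all genes tested, with 20.2% higher in the FC mice, so that 2 of 8 was near the background.

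Endocannabinoids are lipid messengers that are made on demand in the membrane, leave the cell and act on CB1, a receptor that is often presynaptic and lowers transmitter release through inhibitory G proteins. The ligand 2-arachidonoylglycerol (2-AG) is made by diacylglycerol lipases and is hydrolysed mainly by monoacylglycerol lipase, with smaller parts for ABHD6 and ABHD12. Anandamide can be made by NAPE-PLD and is hydrolysed by fatty acid amide hydrolase. In the amygdala this system is known for its part in fear extinction and stress responses, and striatal-type projection neurons carry CB1 themselves.

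Ribosome-bound RNA was obtained from adult Drd2-TRAP mice by translating ribosome affinity purification (TRAP), in which tagged ribosomes are pulled down from a punch of tissue and the RNA on them is sequenced. Both groups carried the same transgenes: Cre from a Drd2 bacterial artificial chromosome (line ER43) and a Rosa26 floxed-stop allele of the ribosomal protein L10a fused to EGFP. Any cell of the 1 mm punch with Drd2-driven Cre, including any adjoining striatum, can contribute RNA. There were 3 libraries of fear conditioned (FC) mice, which received tone and foot shock pairings, named FC2, FC3 and FC4 here, and 2 libraries of home cage (HC) control mice, named HC6 and HC7 here. Each library was a pool of 3 animals, with brains taken 2 h after the session, so that the tests measure the spread between pools. The sources differ on the groups. The labels call the controls home cage mice and place the collection after extinction. The paper's results instead describe controls that heard the tone without shock and a collection after conditioning. Its methods, like the labels, abbreviate the control group of this experiment as HC. No batch is given in the labels.

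The authors deposited a normalised signal for each gene in reads per 1000000 of an effective library size (CPM). The reads on genes recovered from it numbered 19605318 to 27937520 per library, and 3 reads, used here as a floor, correspond to 0.10 to 0.158 CPM. Amplified reads are not molecules counted 1 by 1, so this floor speaks to counting error alone. The control libraries stood apart from the others and from each other before any member was considered: HC7 listed 2681 genes at 0 and HC6 listed 976, against 159 to 349 genes in the FC libraries. Over all genes tested, the median gap between HC6 and HC7 was 1.08 on the log2 scale, while the median range over the 3 FC libraries was 0.44. Results for the members are therefore given also without HC6 and without HC7. In those fits 1 control library is left, which is assumed to vary like the FC libraries.

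Drd2, whose regulatory sequence drives Cre, was at 326, 375 and 555 CPM in FC2, FC3 and FC4 and at 128 and 262 CPM in HC6 and HC7, lower in both controls. The summed signal of 10 striatal-type projection neuron markers was 22202 to 23645 CPM in the FC libraries and 8145 and 13289 CPM in HC6 and HC7. Penk alone made up most of these sums, at 13565 to 16076 CPM against 6098 and 8606 CPM. Of the 10 markers 9 were higher in the FC libraries without overlap. Over all genes tested, 20.2% were higher and 16.1% lower without overlap. The summed signal of 7 central amygdala markers was 157 to 296 CPM against 306 and 546 CPM, with Tac2 at 0 in HC7. Sst and Nts together made up most of these sums. Of these markers 4 were lower in the FC libraries without overlap, among them Prkcd, at 11.5, 11.9 and 11.2 CPM against 14.2 and 41.1 CPM. Crh, Tac2 and Nts overlapped between the groups. The estimates of Crh and Tac2 were higher in the FC group, with log2 fold changes of 1.03 and 1.07. Of 7 astrocyte markers 5 were lower in the FC libraries without overlap, with sums of 845 to 1032 CPM against 2158 and 2920 CPM, and the 6 oligodendrocyte markers summed to 1248 to 2640 CPM against 2707 and 5183 CPM. The 5 choroid plexus markers summed to 57.7 to 110 CPM against 1004 and 1415 CPM, with Folr1 and Kcnj13 at 0 in FC2. Ttr alone made up most of the control sums, at 913 and 1320 CPM, against 0.522, 22.1 and 0.348 CPM in the FC libraries. Clic6 made up most of the FC sums and overlapped, at 50.9, 77.2 and 56.2 CPM against 51.1 and 64.2 CPM. Folr1 overlapped as well. Markers of CCK interneurons, a cell type rich in Cnr1, summed to 48.4 to 88.0 CPM against 110 and 69.9 CPM. Slc17a8 was at 0 in both controls, and Htr3a and Prox1 were also at 0 in HC7. Cck weighed most in these sums, at 57.8, 32.7 and 14.7 CPM against 76.0 and 67.1 CPM. Of the 6 markers tested, 4 had higher and 2 lower estimates in the FC group. Among the higher ones, Slc17a8 passed the filter on low values through the FC libraries alone. Sums for 7 microglial markers were 52.3 to 87.0 CPM against 99.8 and 77.8 CPM, and for 5 endothelial markers 9.25 to 34.6 CPM against 55.4 and 172 CPM. Ly6c1 alone gave 150 CPM of the endothelial sum in HC7 and was at 8.98 CPM in HC6. Of the endothelial markers 2 were lower without overlap, whereas Cldn5 was higher, at 8.91, 1.79 and 7.25 CPM against 1.14 and 0.0527 CPM. The HC7 value of Cldn5 rests on 1 read, below the floor. Its mean reached the filter on low values through the FC libraries, so these values are no measure of a difference. The part of these markers in the results for the members was not tested. In such bulk samples, fewer cells of a type and less RNA per cell cannot be told apart.

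Cnr1 (ENSMUSG00000044288), which encodes CB1, was at 83.7, 257 and 268 CPM in FC2, FC3 and FC4 and at 111 and 194 CPM in HC6 and HC7. FC2 had the lowest value of the 5 libraries and FC3 and FC4 the highest, so the controls lay inside the range of the FC group. These values rest on 1765 to 6183 reads per library. The group means were 203 ± 104 CPM (SD, n = 3) and 152 ± 58.2 CPM (SD, n = 2). The log2 fold change of FC against HC was 0.29 (SE 0.56, 95% interval -1.08 to 1.66), with an adjusted p of 0.815 (limma with Benjamini-Hochberg adjustment over all genes tested). All fold changes from limma are on the log2(value + 1) scale, which understates the change of genes with low values. The range of Cnr1 over the 3 FC libraries was 1.67 on the log2 scale, larger than in 99.2% of the genes tested, whereas its gap between the controls, 0.79, lay at the percentile 39.3. Its estimate moved with single libraries of either group: it was 0.84 without FC2, 0.03 without FC3, 0.00124 without FC4, -0.11 without HC6 and 0.69 without HC7. None of these passed the test.

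**Figure D1:**
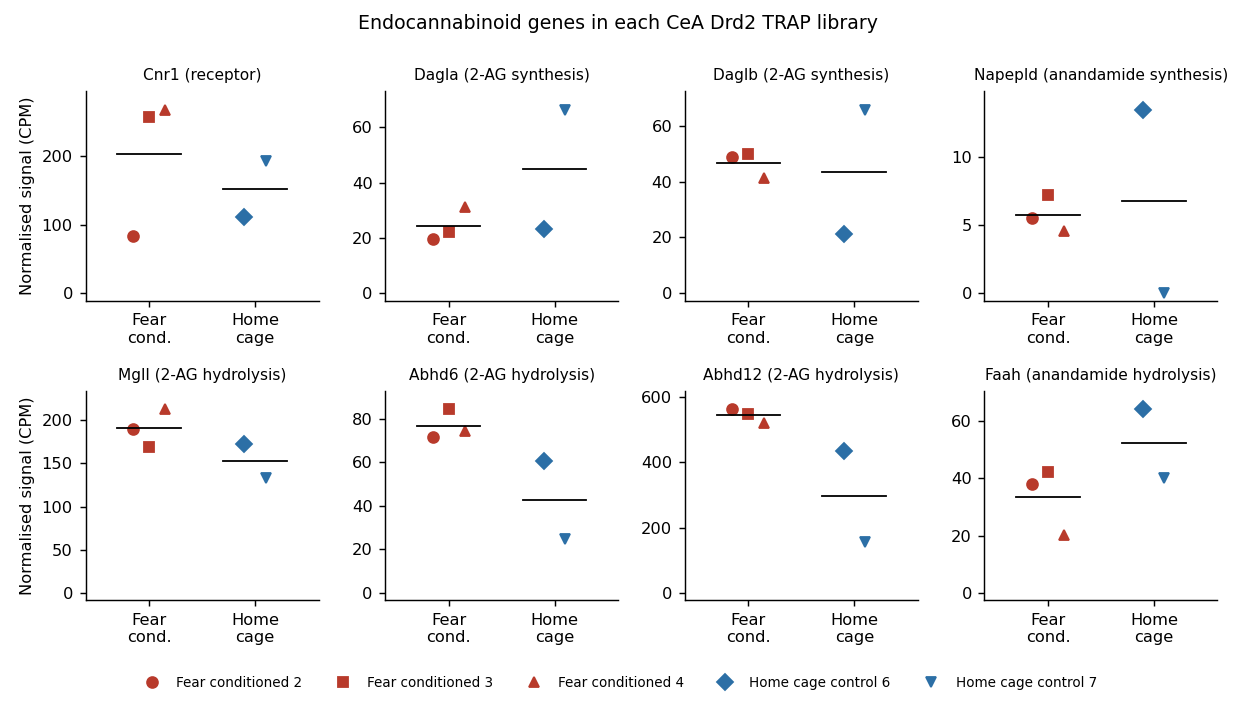
Normalised signal (CPM, linear axes from 0, a separate scale for each gene) of the 8 genes in each library, with the FC libraries in red, the control libraries in blue and a line at each group mean. Abhd6 and Abhd12 show every FC library above both controls, Cnr1 shows FC2 at 83.7 CPM below all others, and Napepld is listed at 0 in HC7.

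The 2 genes of 2-AG synthesis overlapped between the groups. Dagla (ENSMUSG00000035735), the diacylglycerol lipase that makes most of the 2-AG of synapses, was at 19.7, 22.1 and 31.2 CPM in FC2, FC3 and FC4 and at 23.2 and 66.4 CPM in HC6 and HC7. HC7 stood above the other 4 libraries and HC6 lay among the FC values. The group means were 24.3 ± 6.09 CPM (SD, n = 3) and 44.8 ± 30.6 CPM (SD, n = 2). The log2 fold change was -0.70 (SE 0.52, 95% interval -1.97 to 0.57), with a limma adjusted p of 0.521. Daglb (ENSMUSG00000039206), the related lipase with a larger part outside neurons, was at 48.8, 50.0 and 41.2 CPM in the FC libraries and at 21.3 and 65.9 CPM in HC6 and HC7. The 3 FC values lay close together, with 1 control below and 1 control above them. The group means were 46.7 ± 4.80 CPM (SD, n = 3) and 43.6 ± 31.5 CPM (SD, n = 2), and the log2 fold change was 0.30 (SE 0.49, 95% interval -0.90 to 1.49, limma adjusted p = 0.785). The direction of both genes turned on which control was used. Dagla had a log2 fold change of -1.44 without HC6 (limma adjusted p = 0.00579) and of 0.04 without HC7 (limma adjusted p = 0.934). Daglb had -0.49 without HC6 (limma adjusted p = 0.105) and 1.09 without HC7 (limma adjusted p = 0.0178).

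The 3 genes of 2-AG hydrolysis had higher mean values in the FC group, and 2 of them did not overlap, beside 20.2% of all genes tested that were higher without overlap. Abhd12 (ENSMUSG00000032046), a membrane lipase that also acts on lysophosphatidylserine, was at 563, 547 and 522 CPM in FC2, FC3 and FC4 and at 436 and 157 CPM in HC6 and HC7. All 3 FC libraries were above both controls, and HC7 was far below HC6. The group means were 544 ± 20.8 CPM (SD, n = 3) and 297 ± 197 CPM (SD, n = 2). The log2 fold change was 1.05 (SE 0.42, 95% interval 0.02 to 2.08), with a limma p of 0.0464 that became 0.292 after Benjamini-Hochberg adjustment. Abhd6 (ENSMUSG00000025277), a postsynaptic monoacylglycerol lipase, was at 71.7, 84.2 and 74.5 CPM in the FC libraries and at 60.3 and 24.9 CPM in HC6 and HC7. Again both controls lay below all FC libraries, and HC7 was the lowest. Its group means were 76.8 ± 6.58 CPM (SD, n = 3) and 42.6 ± 25 CPM (SD, n = 2), with a log2 fold change of 0.96 (SE 0.40, 95% interval -0.02 to 1.94, limma adjusted p = 0.305). Mgll (ENSMUSG00000033174), monoacylglycerol lipase, was at 190, 169 and 212 CPM in the FC libraries and at 172 and 133 CPM in HC6 and HC7. HC6 lay just above FC3, so the groups overlapped. The means were 190 ± 21.9 CPM (SD, n = 3) and 152 ± 28.0 CPM (SD, n = 2), and the log2 fold change was 0.33 (SE 0.23, 95% interval -0.24 to 0.89, limma adjusted p = 0.50).

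The size of the hydrolase differences rested on HC7, although their direction did not. Abhd12 had a log2 fold change of 1.79 without HC6 (limma adjusted p = 0.000491) and 0.32 without HC7 (limma adjusted p = 0.314). Abhd6 had 1.58 without HC6 (limma adjusted p = 0.00100) and 0.34 without HC7 (limma adjusted p = 0.288). Mgll had 0.51 without HC6 (limma adjusted p = 0.0851) and 0.14 without HC7 (limma adjusted p = 0.679). In the exact permutation test over the 10 divisions of the 5 libraries into 3 and 2, two-sided, Abhd12 and Abhd6 each had p = 0.1, the smallest p that this design allows.

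The 2 genes of the anandamide pathway also overlapped between the groups. Napepld (ENSMUSG00000044968), the phospholipase D that releases anandamide from its membrane precursor, was at 5.5, 7.2 and 4.57 CPM in FC2, FC3 and FC4 and at 13.5 CPM in HC6, and was listed at 0 in HC7. These values rest on 116, 173 and 92 reads in the FC libraries, on 403 reads in HC6 and on 0 reads in HC7, which allows up to 0.158 CPM. The group means were 5.76 ± 1.34 CPM (SD, n = 3) and 6.73 ± 9.52 CPM (SD, n = 2). The controls thus held both the highest and the lowest value of the gene, and their gap of 3.85 on the log2 scale was larger than in 94.8% of the genes tested. The log2 fold change was 0.81 (SE 1.13, 95% interval -1.93 to 3.56, limma adjusted p = 0.739). It was 2.74 without HC6 and -1.12 without HC7, with limma adjusted p-values of 0.000650 and 0.0480 in opposite directions. With a pseudocount of 0.1 it was 2.31, so its size depends on the value added to the 0 of HC7. Faah (ENSMUSG00000034171), fatty acid amide hydrolase, was at 38.0, 42.1 and 20.2 CPM in the FC libraries and at 64.1 and 40.3 CPM in HC6 and HC7. HC6 was the highest and FC4 the lowest, and FC3 lay above HC7. The group means were 33.4 ± 11.7 CPM (SD, n = 3) and 52.2 ± 16.8 CPM (SD, n = 2), with a log2 fold change of -0.66 (SE 0.43, 95% interval -1.71 to 0.40, limma adjusted p = 0.472). Faah was lower also without HC6 (-0.33) and without HC7 (-0.98), with limma adjusted p-values of 0.507 and 0.0980, and it was at -0.34 without FC4. Slc17a7, a vesicular glutamate transporter of pallial neurons, was also lowest in FC4, at 34.5 CPM, against 152 and 141 CPM in FC2 and FC3 and 227 and 197 CPM in HC6 and HC7, and its part in the values of Faah was not tested.

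**Figure D2:**
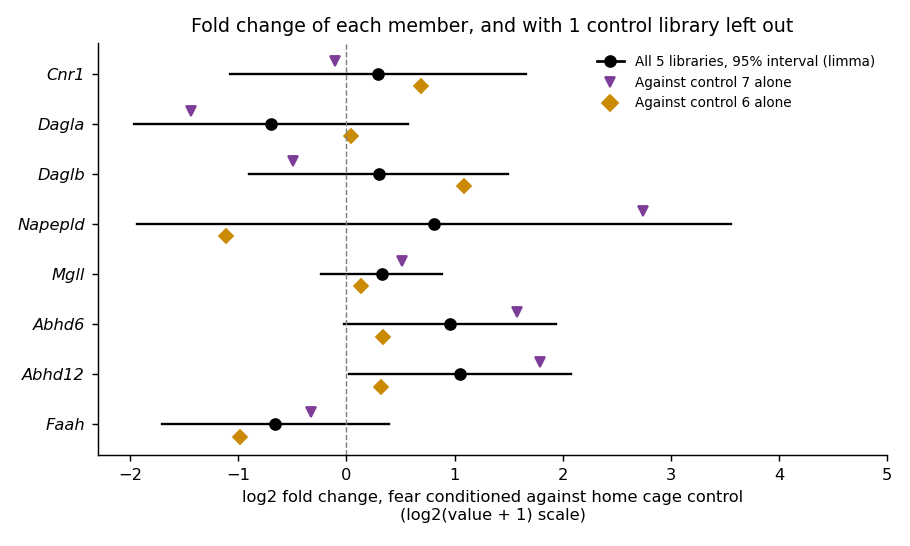
Log2 fold change of each gene, FC against HC on the log2(value + 1) scale, with the 95% limma interval from all 5 libraries (black) and the estimates against 1 control library alone (purple for HC7, yellow for HC6). The interval of Abhd12 alone lies above 0, and the estimates of Cnr1, Dagla, Daglb and Napepld have opposite signs against the 2 controls.

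Over the 8 genes, 6 had a higher and 2 a lower mean log2 value in the FC group, with a median log2 fold change of 0.31 against 0.08 over all genes tested. Napepld counted as higher on the log2(value + 1) scale, and with a pseudocount of 0.1, whereas its mean CPM was lower in the FC group. Its log2 fold change was -0.18 with edgeR and -0.21 with DESeq2. None was called at an adjusted p under 0.05 with an absolute log2 fold change over 0.5, and limma called 0 of the 13560 genes (0.0%) at these cutoffs, the smallest adjusted p being 0.197. At an unadjusted p under 0.05 limma returned 2280 genes (16.8%), of which 9.49% of all genes tested were higher and 7.32% lower, and 1 of the 8 members, Abhd12. The groups did not overlap for 2 of the 8 members, both higher, whereas this held for 36.4% of all genes tested, 20.2% higher and 16.1% lower. The 25% of members without overlap was near this background. The edgeR quasi-likelihood test on recovered reads also called 0 genes, and 2404 had an unadjusted p under 0.05. By contrast, DESeq2 on recovered reads called 1296 of 14489 genes (8.94%), 656 higher and 640 lower, and 0 members, whose adjusted p-values ran from 0.233 to 0.982.

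Leaving out a control library raised the number of calls over the whole table. Without HC6 limma called 8025 genes (60.5%) and 4 of the 8 members (Abhd6, Abhd12, Dagla and Napepld), and without HC7 it called 3722 genes (27.5%) and 2 members (Daglb and Napepld). The groups then did not overlap for 6 members without HC6, beside 87.5% of all genes, and for 5 members without HC7, beside 77.9% of all genes. Napepld was the only member called in both cases, in opposite directions.

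The spread of the 8 genes within each group differed widely. For 6 of them the gap between the controls was larger than the range over the FC libraries, the exceptions being Cnr1 and Faah. Abhd12 had an FC range of 0.11 on the log2 scale, at the percentile 4.82 of all genes tested, and a control gap of 1.47. For Daglb these values were 0.28 and 1.58, for Abhd6 0.23 and 1.24, and for Dagla 0.64 and 1.48. Mgll had nearly the same spread in both groups, 0.33 and 0.37. Faah had an FC range of 1.03, at the percentile 92.4, and a control gap of 0.66. The direction of the gap also differed: Cnr1, Dagla and Daglb were higher in HC7 than in HC6, whereas Mgll, Abhd6, Abhd12, Napepld and Faah were lower in HC7.

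**Figure D3:**
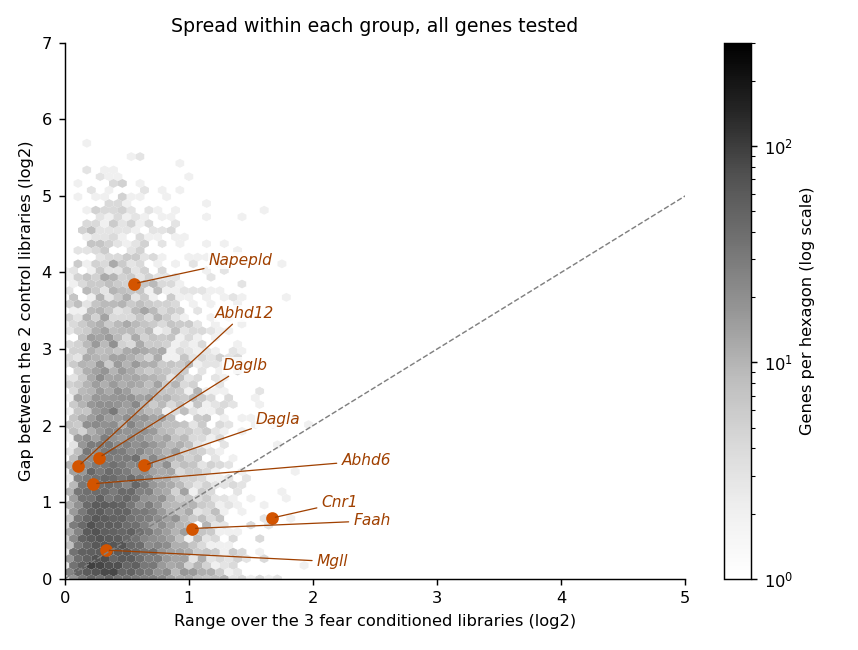
Range over the 3 FC libraries (x axis, log2) against the gap between the 2 control libraries (y axis, log2) for all 13560 genes tested, shaded by the number of genes per hexagon, with the 8 members in orange and a dashed line where both are equal. Cnr1 lies far to the right with an FC range of 1.67, Napepld lies high with a control gap of 3.85, and Abhd12 lies at the left edge.

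To compare levels between genes, each signal was divided by the gene length of the table in kilobases. The mean level over the 5 libraries was 130 CPM per kb for Abhd12 (range 45.8 to 164), 66.5 for Mgll (50.3 to 80.7), 29.2 for Abhd6 (11.5 to 39.0) and 26.2 for Cnr1 (12 to 38.5). Below these were Daglb at a mean of 8.75 CPM per kb (4.11 to 12.7), Faah at 5.53 (2.72 to 8.66), Dagla at 3.58 (2.17 to 7.31) and Napepld at 0.962 (0 to 2.11). The hydrolases of 2-AG thus stood above its 2 synthases in mean level, and the enzymes of anandamide were in the lower part of the order. Abhd12 was first in all libraries but HC7, where Mgll was first, and Napepld was last in all 5. Cnr1 was above Abhd6 in FC4 and HC7, Daglb above Abhd6 in HC7, Faah above Daglb in HC6, and Dagla above Faah in FC4 and HC7. The ranges of neighbours in the order overlapped except those of Mgll and Abhd6 and of Dagla and Napepld. Among all genes of a library, the level per kb of Abhd12 lay at percentiles 88.8 to 97.2 and that of Cnr1 at 70.7 to 87.5, while Napepld, where it had reads, lay at 20.0 to 32.0.

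**Figure D4:**
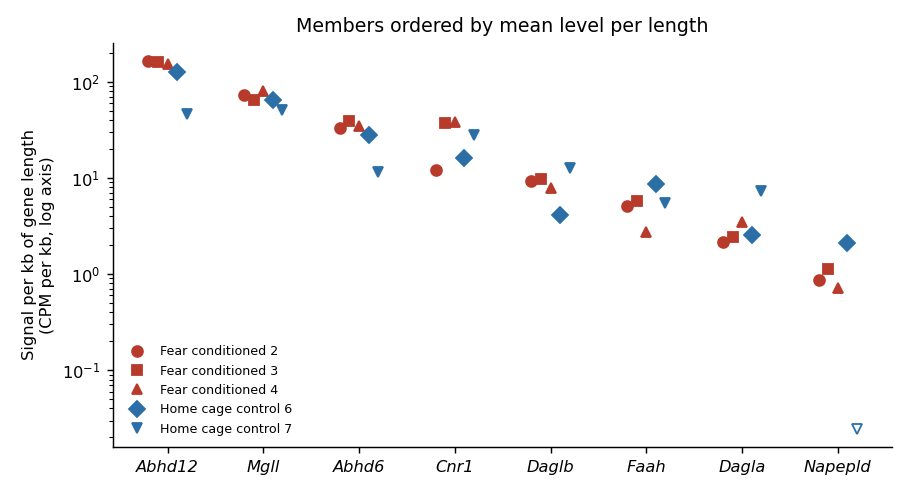
Level of each gene in CPM per kb of gene length (log axis) in each library, ordered by the mean, with the FC libraries in red and the controls in blue. Levels run from 130 CPM per kb for Abhd12 to 0.962 for Napepld, and the open triangle marks 0 reads of Napepld in HC7, drawn at the floor of 3 reads.

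Ratios of 2 genes within a library do not depend on how that library was scaled. On the log2 scale of levels per kb, the ratio of Dagla to Daglb was -2.12, -1.98 and -1.21 in FC2, FC3 and FC4 and -0.69 and -0.79 in HC6 and HC7. Per kb, Daglb was the more abundant of the pair in every library, whereas in CPM not divided by length Dagla was slightly above it in both controls. The ratio was lower in all FC libraries than in both controls, although each gene alone overlapped. The difference of the group means was -1.03, with p = 0.2 in the two-sided exact permutation test and 0.2 after Benjamini-Hochberg adjustment over the 4 ratios of single genes tested. The ratio of Cnr1 to Drd2 was -3.42, -2.0 and -2.50 in the FC libraries and -1.66 and -1.89 in HC6 and HC7. It was lower in all FC libraries, with a difference of -0.86 (exact permutation p = 0.2, adjusted 0.2), beside the higher Drd2 values of those libraries given above. Without FC2, the library with the lowest Cnr1, the difference was -0.47.

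Among the hydrolases, the log2 ratio of Mgll to Abhd6 was 1.12, 0.72 and 1.23 in FC2, FC3 and FC4 and 1.23 and 2.13 in HC6 and HC7. FC4 and HC6 differed by less than the second decimal, and HC7 stood alone above the rest. The difference of the means was -0.65 (exact permutation p = 0.1, adjusted 0.2), and it was -0.21 without HC7 and -1.10 without HC6. The ratio of Mgll to Abhd12 was -1.19, -1.32 and -0.91 in the FC libraries and -0.96 and 0.14 in the controls, a difference of -0.73 with overlap (exact permutation p = 0.2, adjusted 0.2) that was -0.18 without HC7 and -1.28 without HC6. As shares of the summed level of the 3 hydrolases, Abhd12 made up 56.9% to 60.9% in the FC libraries and HC6 and 42.5% in HC7, Mgll 24.4% to 30.2% and 46.8%, and Abhd6 12.3% to 14.8% and 10.7%. The log2 ratio of Abhd6 to Abhd12, added after the values were seen, stayed between -2.31 and -1.99 in all 5 libraries, with a difference of -0.07 between the groups.

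The summed level of Dagla and Daglb against the summed level of Mgll, Abhd6 and Abhd12 gave log2 ratios of -4.54, -4.44 and -4.56 in FC2, FC3 and FC4. The controls lay on either side of these, at -5.05 in HC6 and -2.43 in HC7, so that the difference of -0.78 between the group means became 0.53 without HC7. The ratio of Napepld to Faah was -2.58, -2.33 and -1.93 in the FC libraries and -2.04 in HC6, and could not be formed in HC7.

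**Figure D5:**
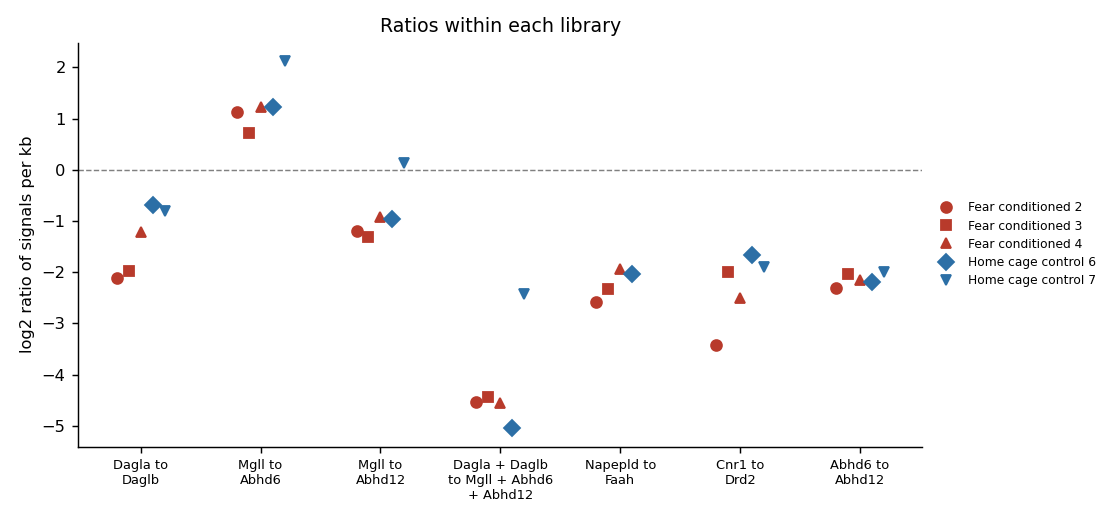
Log2 ratios of levels per kb within each library (FC in red, controls in blue, dashed line at equal levels). The ratios of Dagla to Daglb and of Cnr1 to Drd2 are lower in all 3 FC libraries than in both controls, the ratio of Abhd6 to Abhd12 varies least, and HC7 stands apart in the ratios that hold Mgll and in the summed ratio.

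The members also differed in how alike their profiles were over the 5 libraries, measured as the root mean square difference of log2(value + 1) profiles, each centred on its own mean. Abhd6 and Abhd12 were the closest pair of members, at 0.120, followed at a distance by Mgll and Abhd6 at 0.448, and Dagla and Napepld were the farthest apart, at 1.88. Among the 9275 other genes with a mean of at least 10 CPM, the nearest to Cnr1 were Strn (0.164), AI593442 (0.226) and Sertad2 (0.250), none as close as the nearest genes of the other members. Nearest to Dagla were Zzef1 (0.0604), Myef2 (0.0768) and Slc6a8 (0.0893), and nearest to Daglb were Med7 (0.0361), Med6 (0.0421) and Ranbp6 (0.0514). Nearest to Mgll were Rapgef6 (0.0586), Ubac2 (0.0676) and Pik3c2b (0.0699). Nearest to Abhd6 were Entpd4 (0.0283), Ggps1 (0.0324) and Neu1 (0.0399), and nearest to Abhd12 were Dars (0.0462), Mdp1 (0.0501) and Slc25a12 (0.0550). Nearest to Napepld were Acadsb (0.119), Mynn (0.128) and Hdac9 (0.129), and nearest to Faah were Ncald (0.102), Gpr123 (0.141) and Car10 (0.146). With 5 libraries and so many genes, close profiles are found for many genes, and they are given as a description.

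The wider pathway was taken from lists of 50 further genes, of which 38 were in the table, all of them tested. None was called, and 3 were higher and 4 lower at an unadjusted limma p under 0.05, 18.4% of the 38 against 16.8% of all genes tested. The groups did not overlap for 6 higher and 9 lower genes, 39.5% against 36.4%, and the median log2 fold change was -0.02 against 0.08. Both counts of higher genes, and the medians here and below, include Chrm3 and Ptgs2. These passed the filter on low values through the FC libraries alone, so the counts are no measure of a difference. The shares over all genes tested were not cleared of such genes either. The adjusted p-values ran from 0.197 to 0.996. The second cannabinoid receptor Cnr2 and the other lipid-sensing receptors Gpr55, Gpr18, Gpr119 and Trpv1 were not listed in the table, which holds genes with a value above 1 CPM in some library.

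Of the 9 genes of CB1 partners and inhibitory G proteins, 8 had lower estimates in the FC group, with a median log2 fold change of -0.33, and 1 had an unadjusted p under 0.05. This was Gnai1, an inhibitory G protein subunit, at 129, 133 and 109 CPM in FC2, FC3 and FC4 and at 296 and 195 CPM in HC6 and HC7. Both controls lay above all FC libraries, with a log2 fold change of -0.95 (SE 0.26, limma adjusted p = 0.208). Cnrip1, which encodes a protein that binds the tail of CB1, was at 86.4, 84.3 and 58.0 CPM against 163 and 50.8 CPM, with the controls on either side of the FC values (log2 fold change -0.28, SE 0.51, limma adjusted p = 0.802).

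The 10 genes of Gq-coupled receptors and phospholipase C beta, the route that supplies diacylglycerol for 2-AG, had 6 higher and 4 lower estimates and a median of 0.07. Chrm3, a Gq-coupled muscarinic receptor, had 16, 82 and 75 reads in FC2, FC3 and FC4 and 0 reads in both controls. It passed the filter on low values through the FC libraries alone, so its limma adjusted p of 0.257 is no measure of a difference between the groups. Gnaq, the alpha subunit of Gq, was at 77.9, 109 and 126 CPM against 199 and 146 CPM, lower in all FC libraries (log2 fold change -0.73, SE 0.29, limma adjusted p = 0.290). Plcb3, a phospholipase C, was at 5.12, 4.29 and 4.02 CPM against 11.8 and 14.2 CPM, again without overlap (log2 fold change -1.35, SE 0.52, limma adjusted p = 0.274).

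Other enzymes of N-acylethanolamines and 2-AG comprised 13 tested genes, 8 with higher and 5 with lower estimates and a median of 0.26. Pla2g4e, a calcium-dependent acyltransferase that makes the precursor of anandamide, was at 1.47, 1.96 and 0.794 CPM in FC2, FC3 and FC4 and at 10.9 and 26.2 CPM in HC6 and HC7. Both controls were several times above every FC library, with a log2 fold change of -2.93 (SE 0.63, limma adjusted p = 0.197). Gde1, a glycerophosphodiesterase of an alternative route to anandamide, was at 402, 392 and 393 CPM against 312 and 250 CPM, higher in all FC libraries (log2 fold change 0.50, SE 0.21, limma adjusted p = 0.295). Naaa, a lysosomal amidase of N-acylethanolamines, was at 13.0, 9.99 and 16.8 CPM against 26.1 and 6.12 CPM, with overlap (log2 fold change 0.01, SE 0.69, limma adjusted p = 0.996). Among the 6 genes of oxidation and carriers, with a median of 0.39, Ptgs2, the cyclooxygenase that also oxidises endocannabinoids, was at 1.23, 2.08 and 2.28 CPM against 0.134 CPM in HC6 and 0 in HC7. It was higher in all FC libraries (log2 fold change 1.41, SE 0.50, limma adjusted p = 0.251), with 4 reads in HC6 and 0 in HC7 behind the control values. Like Chrm3, Ptgs2 passed the filter on low values through the FC libraries alone, so these values are no measure of a difference.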

How the data were processed

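TRAP RNA of 5 libraries (3 FC, 2 HC) was compared, with groups and replicate numbers taken from the labels. The authors deposited a normalised signal per gene and library, in CPM, with a gene length. The paper's methods name Tuxedo DESeq software and the submitters' processing notes DESeq and the build mm8, whereas the versions, the annotation and the use of strand are not given in the sources used here. All values (100%) were whole multiples of 1 read within 0.01, and these multiples served as recovered reads, 19605318 to 27937520 per library. Every per-sample column was used.

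The log2(value + 1) values were fitted with limma 3.58.1 (lmFit, then trended eBayes). A gene entered the fit if its mean reached 1, and p-values were two-sided and adjusted by Benjamini-Hochberg over 13560 genes. The paper's cutoffs were used for calls, an adjusted p under 0.05 together with a log2 fold change beyond 0.5 in either direction. Ratios were compared with an exact permutation test. The alternatives were a pseudocount of 0.1, other filters, quantile normalization, library weights, edgeR 4.0.16 and DESeq2 1.42.0 on recovered reads, and each library left out. The counts of groups without overlap after leaving out a control, and the ratio of Abhd6 to Abhd12, were added after seeing the data. Fits were tested on simulated data with large changes and the same dispersion in every library. That test does not speak to the wide gap between the controls here. Scripts ran in Python 3.11.15 (pandas 2.3.3, numpy 2.4.6, matplotlib 3.10.9) and R 4.3.3.

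The members and gene lists were chosen with earlier results of these data known. The genes named are the 8 members, up to 4 genes of each pathway list with the smallest unadjusted p under 0.05, Cnr2, Cnrip1, Naaa and Ptgs2 in any case, the 3 nearest profiles of each member, and Drd2. Slc17a7 was named after its values were seen. Marker genes were named where they define the tissue or were at 0, and 1 further marker list is not reported here. The RefSeq annotation of GRCm38.p6, from which no coordinates were taken, places noncoding genes or a pseudogene over Dagla, Mgll, Abhd6, Abhd12 and Napepld and none over Cnr1, Daglb and Faah. None of those neighbours is in the table used here, and reads from them cannot be told apart from the members without strand.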

Additional observations from a re-analysis of the deposited data

How the results depend on the processing

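The 2 control libraries limit every comparison, and each estimate without 1 of them rests on a lone control. No paired analysis was possible because the groups share no replicate numbers. The pseudocount of 0.1, the other filters, quantile normalization, library weights and edgeR kept the count of genes called at 0, and kept the direction of every member except Napepld, which left the test when every library had to reach 1, and was at -0.18 with edgeR, -0.16 with edgeR without a filter and -0.21 with DESeq2. The estimate of Daglb moved to 0.079 with edgeR, 0.042 with DESeq2 and 0.47 with quantile normalization, and that of Cnr1 to 0.57 with library weights. DESeq2 called 1296 genes. The median log2 fold change of all genes was 0.08, moving to 0.16 with a pseudocount of 0.1 and to -0.07 with DESeq2.

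Over the fits that each left out 1 library, the number of genes called ran from 0 to 8025, the number of members called from 0 to 4, and the members without overlap from 5 to 6 with a control left out. Log2 fold changes ran from -1.44 to 0.042 for Dagla, from -0.49 to 1.09 for Daglb, from -0.11 to 0.84 for Cnr1 and from -1.12 to 2.74 for Napepld. The log2 ratio difference of summed synthesis to hydrolysis was -0.78 and ran from -2.09 to 0.53. Without division by gene length Cnr1 was at place 2, Mgll at 3 and Abhd6 at 4. The cause of these changes was not tested.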
